A study of Mus musculus with 6 samples.

Results

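The genes of glycolysis, lactate handling and pyruvate entry into mitochondria were followed step by step in 4T-1 cells labelled as Lyplal1 knockout, set against wild-type 4T-1 cells. The members are a list of 35 genes, taken by symbol, of 55487 genes in the deposited count table, and all 35 had a row. 4T-1 is a mouse mammary carcinoma line. There were 3 Lyplal1 knockout libraries and 3 wild-type libraries, all of untreated cells of that line, and the genotype is the one labelled difference. The labels add the code sg2 to the knockout libraries and NC to the wild-type libraries. They do not say whether the knockout is 1 clone or a pool, nor whether libraries of a group are separate cultures, so p-values measure the spread between these libraries, which may be technical.

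Glycolysis splits glucose into pyruvate in the cytosol and yields ATP and NADH. Pyruvate is then either reduced to lactate, which restores NAD+ and leaves the cell through monocarboxylate transporters, or carried into mitochondria and oxidised by the pyruvate dehydrogenase complex, which pyruvate dehydrogenase kinases switch off. Many carcinoma cells run the lactate route also in the presence of oxygen, and hypoxia-inducible factors raise transcription of most enzymes of that route and of the kinase Pdk1.

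Libraries held 16731209 to 16784906 counts in knockout and 17007616 to 17108975 counts in wild type. Lyplal1 itself had 54, 48 and 58 counts in knockout, against 76, 73 and 68 counts in wild type, and was not called (log2 fold change -0.28 ± 0.15 SE, edgeR adjusted p = 0.0886). The groups did not overlap, but transcript counts over the whole gene do not show whether it still gives a working protein. Summed over 8 mammary epithelium markers, the level was 1750 to 1760 CPM (counts relative to library sizes scaled by TMM factors) in knockout and 3130 to 3220 CPM in wild type. Among them Elf3 went the other way, with 469 to 527 counts in knockout and 290 to 315 in wild type. The 8 lung epithelium markers summed to 39.6, 46.1 and 161 CPM in knockout replicates 1 to 3 and to 1.01 to 1.41 CPM in wild type, with all 8 detected in every knockout library and 3 or 4 in each wild-type library. Napsa made most of the wild-type sum, with 16 to 22 counts, and had 5, 10 and 24 counts in knockout. The 8 leukocyte markers summed to 444 to 501 CPM in knockout and 8.49 to 8.76 CPM in wild type, of which Cd68 made most, while Ptprc had 1 to 4 counts in knockout and 3 to 7 in wild type. Fibroblast markers summed to 171 to 180 CPM in knockout and 67.3 to 70.0 CPM in wild type, of which Pdgfra made most, with 2559 to 2849 counts in knockout and 1135 to 1187 in wild type, while Col1a1 went the other way, with 14 to 37 counts in knockout and 60 to 71 in wild type. Adipocyte markers summed to 0.503 to 0.875 CPM in knockout and 0.112 to 0.448 CPM in wild type, with Adipoq, Plin1 and Lep at 0 in all 6 libraries. Red cell markers summed to 0.75 to 1.95 CPM in knockout and 0.674 to 1.12 CPM in wild type, and muscle markers to 1.31, 1.5 and 15.7 CPM in knockout and 2.36 to 2.8 CPM in wild type. Tnnt3 made most of the wild-type muscle sum, with 36 to 45 counts, against 1, 1 and 31 in knockout. Acta1 went the other way, with 12, 10 and 148 counts in knockout and 0 to 2 in wild type. Knockout replicate 3 stood apart in the lung, red cell and muscle lists. It also did so in single leukocyte and fibroblast markers, such as Lyz2 with 28, 45 and 263 counts and Col3a1 with 6, 3 and 64 counts in knockout replicates 1 to 3. Cd68 and Pdgfra, which made most of those sums, did not. The part of these differences in the results was not tested. In bulk RNA, fewer cells of a type and less RNA per cell cannot be told apart.

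Most enzymes between glucose uptake and lactate were lower in knockout. The pyruvate carrier and 2 of the 3 pyruvate dehydrogenase subunits among the members were higher. Of the 31 members with enough counts to test, 16 fell, 11 rose and 4 were not called by edgeR's quasi-likelihood test at an adjusted p under 0.05; without knockout replicate 3, 17 fell and 12 rose. Over all 13022 genes tested, 82.3% were called, 40.9% fell and 41.3% rose, so being called is common here; of the members, 51.6% fell and 35.5% rose. By more than 2-fold, 10 members fell and 4 rose, which is 32.3% and 12.9% of those tested, against 15.6% and 12.4% of all tested genes. The median log2 fold change of the tested members was -0.30, against 0.00 for all tested genes, whose quartiles were -0.59 and 0.55. These values rest on TMM scaling. With total counts or upper-quartile factors the median of all genes moved to -0.14 and -0.13, and on the deposited TPM scale to -0.19, and under these 3 scalings Hk2 and Pdha1 changed direction, as did Bpgm, which was not called, on the TPM scale.

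**Figure D1:**
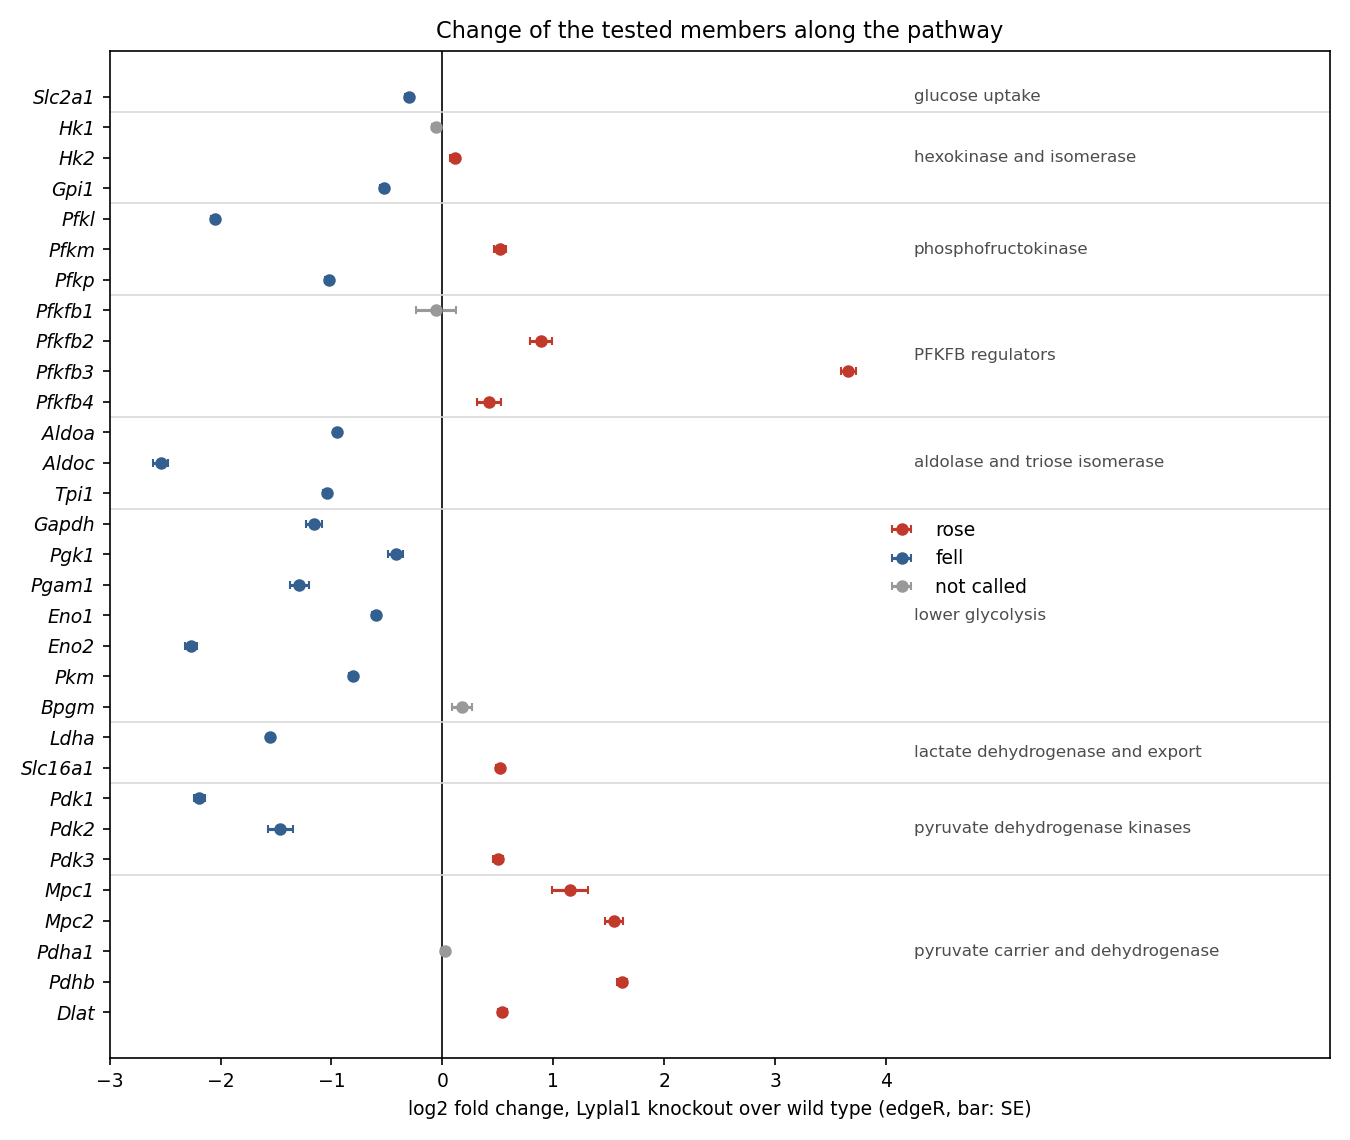
Log2 fold change of the 31 tested members, Lyplal1 knockout over wild type, from edgeR with TMM scaling, in pathway order from glucose uptake at the top to pyruvate dehydrogenase at the bottom; bars are SE. Points left of 0 run from aldolase to pyruvate kinase with no called gene on the right, and all 4 called genes of the pyruvate carrier and dehydrogenase group lie to the right of 0, as do the 3 called Pfkfb genes. Hk2 and Pdha1 lie within 0.2 of 0 and change side with total-count, upper-quartile or TPM scaling.

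Summed over the 35 members, deposited TPM (transcript levels per gene length, scaled to a common total) came to 5649, 5616 and 5673 in knockout and 11200, 11180 and 11250 in wild type. That is 0.565% and 1.12% of all TPM. The wild-type sum was 1.99-fold that of knockout, or 1.66-fold when CPM with TMM scaling were summed in place of TPM. Aldoa, Pkm, Ldha and Tpi1 alone held 3521 ± 39.7 TPM of the sum in knockout and 8269 ± 40.5 TPM in wild type (SD, n = 3 each). The other 31 members together had 2125 ± 14.4 TPM in knockout and 2941 ± 31.4 TPM in wild type. By the members' own rows, the difference in the sum thus lay mainly in those 4 abundant genes. Reads of members with copies may be counted in other rows. The Gapdh row held 238 to 282 counts per library in knockout and 627 to 678 in wild type. Genes that share 50-base windows with it held 6134 to 6484 and 9830 to 10187. How far such reads would change the sum, its share or the order of members was not tested. The order of the most abundant members was the same in both groups, with Aldoa, Pkm, Ldha, Tpi1 and Gpi1 in the first 5 places. Further down, Pfkl stood 15th in knockout and 6th in wild type, Pdhb 10th and 20th, and Pfkfb3 18th and 28th.

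**Figure D2:**
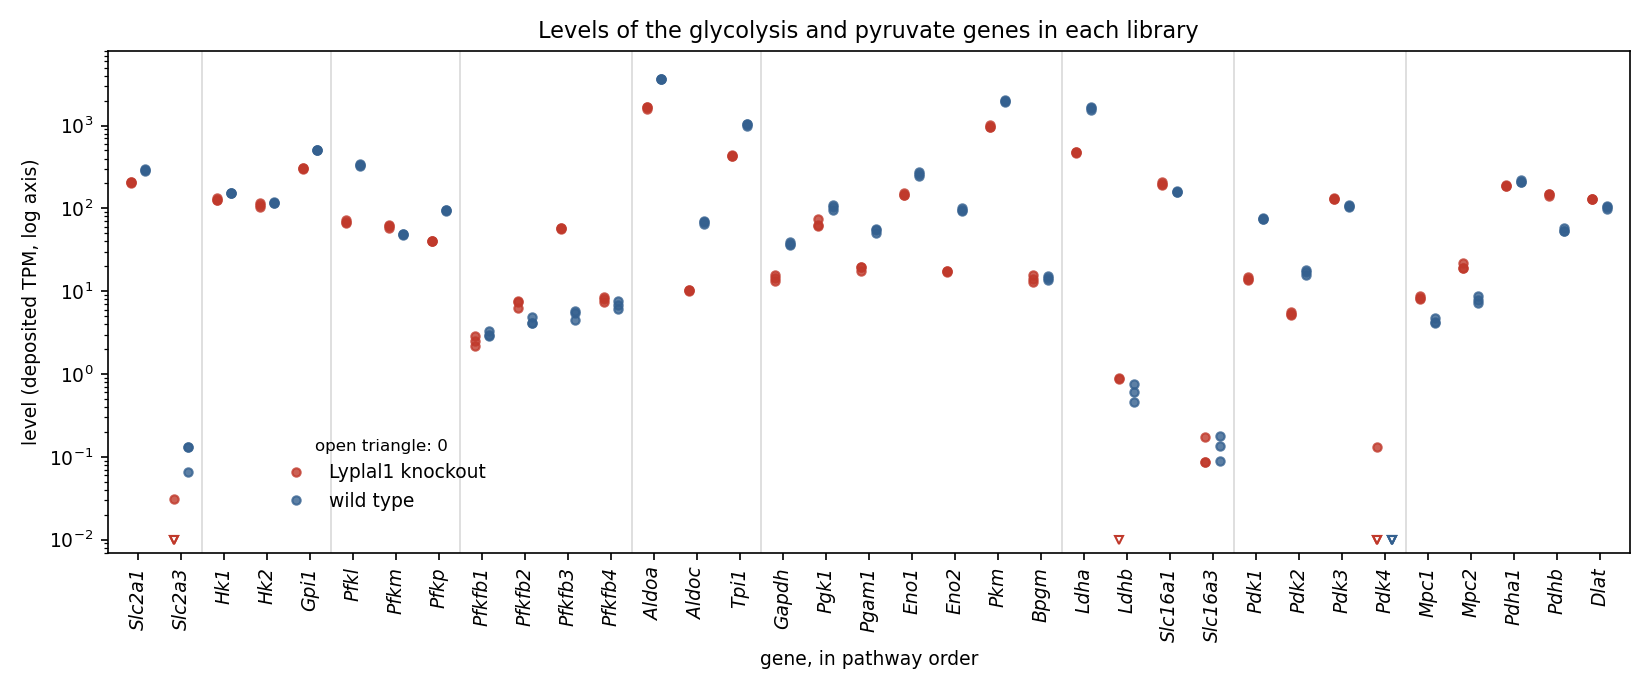
Deposited TPM of each of the 35 members in each library on a log axis, in pathway order; each point is 1 library, knockout left of wild type, and open triangles mark a value of 0. Aldoa is highest in both groups at a mean of 1640 TPM in knockout and 3650 TPM in wild type, and Slc2a3, Ldhb, Slc16a3 and Pdk4 lie below 1 TPM in every library.

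Core letters of the element that hypoxia-inducible factors bind were looked for in the 250 bases upstream of RefSeq gene starts (GRCm38.p6). The letters were ACGTG or GCGTG on either strand, with overlapping matches counted as 1 site. Of the 34 members with such a window (Slc2a3 had none), 29 held at least 1 site in some window, against 41.5% of 27025 mouse genes. The latter share covers genes whether or not they were expressed here, while most members were. No share over the tested genes was taken, so an excess of sites in this pathway cannot be read from these values. Sites were present in 13 of 16 members that fell, 10 of 11 that rose, 3 of 4 not called and 3 of 3 not tested, so genes that moved in opposite directions both carried them. A match describes these letters and is not a measured binding site. Sequences of 4 members, chosen after their values were seen, are shown with sites in capitals, each 5′ to 3′ on the strand of the gene. Ldha and Pdk1 fell, Slc16a1 rose, and Eno2 fell with no match in its window.
Ldha, chr7:46845554-46845803, plus strand: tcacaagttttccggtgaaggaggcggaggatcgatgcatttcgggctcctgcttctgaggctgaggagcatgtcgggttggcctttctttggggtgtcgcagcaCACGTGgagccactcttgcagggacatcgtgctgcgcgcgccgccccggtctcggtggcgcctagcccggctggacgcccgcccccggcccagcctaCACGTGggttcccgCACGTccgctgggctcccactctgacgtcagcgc
Pdk1, chr2:71872974-71873223, plus strand: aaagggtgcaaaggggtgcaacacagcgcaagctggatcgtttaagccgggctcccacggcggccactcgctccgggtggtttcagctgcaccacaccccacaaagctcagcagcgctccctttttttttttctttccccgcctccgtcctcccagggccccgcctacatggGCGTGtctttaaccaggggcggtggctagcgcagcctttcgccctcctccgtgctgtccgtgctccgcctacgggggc
Slc16a1, chr3:104638414-104638663, plus strand: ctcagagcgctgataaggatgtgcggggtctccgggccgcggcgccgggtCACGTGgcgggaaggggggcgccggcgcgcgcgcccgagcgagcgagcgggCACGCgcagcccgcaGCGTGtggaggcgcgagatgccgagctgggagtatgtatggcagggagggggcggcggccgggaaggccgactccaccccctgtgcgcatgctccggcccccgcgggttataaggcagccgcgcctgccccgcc
Eno2, chr6:124769674-124769923, minus strand: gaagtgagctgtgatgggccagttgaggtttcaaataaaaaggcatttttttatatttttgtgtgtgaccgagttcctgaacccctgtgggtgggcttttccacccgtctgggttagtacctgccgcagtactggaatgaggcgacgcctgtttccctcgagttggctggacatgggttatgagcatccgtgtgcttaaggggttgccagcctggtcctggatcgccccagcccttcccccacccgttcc
None of these windows overlaps an exon of its own gene in GENCODE M21. Those of Pdk1, Slc16a1 and Eno2 end within 5 bases of the M21 start of their gene. That of Ldha lies inside the longest M21 span of the gene, chromosome 7 from 46841475 to 46855627. The Ldha window holds 3 sites, the nearest of them 29 bases from the start, the Pdk1 window 1 site at 73 bases and the Slc16a1 window 3 sites, the nearest at 129 bases. Ldha and Pdk1 each have a second RefSeq window, not shown. That of Ldha, chr7:46846832-46847081, holds 1 site, and the bases after its start occur in an M21 transcript of the gene, which is not so for the window shown. That of Pdk1, chr2:71874654-71874903, holds no site and lies wholly within an M21 exon of the gene.

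The first step, glucose uptake, changed little at the transcript level. Slc2a1, the main glucose transporter of proliferating cells, had 196, 194 and 193 CPM in knockout, against 241, 231 and 247 CPM in wild type. All knockout libraries were below all wild-type libraries, and the change was 1.23-fold (log2 fold change -0.30 ± 0.035, edgeR adjusted p = 1.09e-08); against a 1.2-fold minimum it was not called (edgeR adjusted p = 0.0691). Slc2a3, a high-affinity glucose transporter best known from neurons, had 1 count over the knockout libraries and 10 over the wild-type libraries, a ratio of 0.112 with an exact 95% counting interval of 0.00258 to 0.786, which covers counting error only.

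Hexokinases, which trap glucose as its phosphate, barely moved. Hk1, the form found in most tissues, had 289, 303 and 298 CPM in knockout, against 310, 309 and 310 CPM in wild type. Its knockout libraries were lower in all 3 cases but it was not called (log2 fold change -0.06 ± 0.032, edgeR adjusted p = 0.0793), while 8 of 17 other settings called it lower, among them those without knockout replicate 2 (edgeR adjusted p = 0.0496) or 3 (edgeR adjusted p = 0.0367). Hk2, the inducible form of muscle and many tumours, had 185, 178 and 170 CPM in knockout, against 163, 163 and 168 CPM in wild type. It rose by 1.08-fold with TMM scaling (log2 fold change 0.11 ± 0.037, edgeR adjusted p = 0.00786) and was not called without knockout replicate 1 (edgeR adjusted p = 0.071). Its sign changed with total-count, upper-quartile and TPM scaling, but not with RLE factors (0.11, edgeR adjusted p = 0.0108). Gpi1, the isomerase that makes fructose 6-phosphate, had 530, 519 and 545 CPM in knockout, against 769, 761 and 775 CPM in wild type, with no overlap. It fell 1.45-fold (log2 fold change -0.53 ± 0.031, edgeR adjusted p = 8.46e-15).

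Phosphofructokinase, the main control point of glycolysis, lost most of its liver-type subunit transcript. Pfkl, on chromosome 10 from 77986947 to 78010083, had 122, 120 and 134 CPM in knockout, against 532, 516 and 512 CPM in wild type. The knockout libraries lay far below the wild-type ones, and Pfkl fell 4.15-fold (log2 fold change -2.05 ± 0.038, edgeR adjusted p = 1.02e-25). Pfkp, the platelet-type subunit, had 144, 147 and 149 CPM in knockout, against 300, 293 and 300 CPM in wild type, a 2.03-fold fall (edgeR adjusted p = 4.48e-20). Pfkm, the muscle-type subunit, moved the other way and rose 1.43-fold, with 56.5, 54.5 and 53.2 CPM in knockout, against 38.7, 37.3 and 38.6 CPM in wild type (edgeR adjusted p = 5.18e-10). On the TPM scale, which divides counts by gene length, Pfkl made 40.7% ± 1.56 of the phosphofructokinase sum in knockout and 69.8% ± 0.411 in wild type, and Pfkm 35.5% ± 1.53 in knockout and 10.3% ± 0.16 in wild type (SD, n = 3 each). Shares depend on those lengths, 6675 bases for Pfkl, 3340 for Pfkm and 13401 for Pfkp. By counts alone, Pfkl made 38.3% in knockout and 60.8% in wild type, and Pfkm 16.8% and 4.46%. Pfkp made 44.9% and 34.8% by counts, against 23.7% and 19.9% by TPM. The sum itself was 170.1 ± 1.18 TPM in knockout and 475.1 ± 8.99 TPM in wild type.

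The PFKFB enzymes make and break fructose 2,6-bisphosphate, the strongest activator of phosphofructokinase. Pfkfb3, the form with the highest kinase activity relative to its phosphatase activity, had 117, 116 and 122 CPM in knockout, against 7.92, 10.3 and 9.78 CPM in wild type. It had the largest log2 fold change of the 31 tested members in absolute size, 3.66 ± 0.065, or 12.6-fold (edgeR adjusted p = 3.61e-26). The gene lies on chromosome 2 from 11471433 to 11554077. Pfkfb2, the heart form, rose 1.86-fold, with 12.1, 14.2 and 15.2 CPM in knockout, against 8.31, 6.95 and 7.08 CPM in wild type (edgeR adjusted p = 1.51e-08). Pfkfb4, first described in testis, had 11, 9.68 and 10.9 CPM in knockout, against 6.97, 7.73 and 8.88 CPM in wild type, 1.34-fold higher (edgeR adjusted p = 0.000763); on log2(TPM + 1) limma did not call it (adjusted p = 0.0983). Pfkfb1, the liver form, had 2.45 to 3.13 CPM in knockout and 2.7 to 3.12 CPM in wild type, groups that overlapped (edgeR adjusted p = 0.751). By TPM, Pfkfb3 made 76.7% ± 0.162 of the family in knockout and 26.9% ± 2.92 in wild type, where Pfkfb4 made 10.6% ± 0.612 and 35.1% ± 2.92. The family as a whole had 75.11 ± 0.918 TPM in knockout and 19.55 ± 0.687 TPM in wild type.

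**Figure D3:**
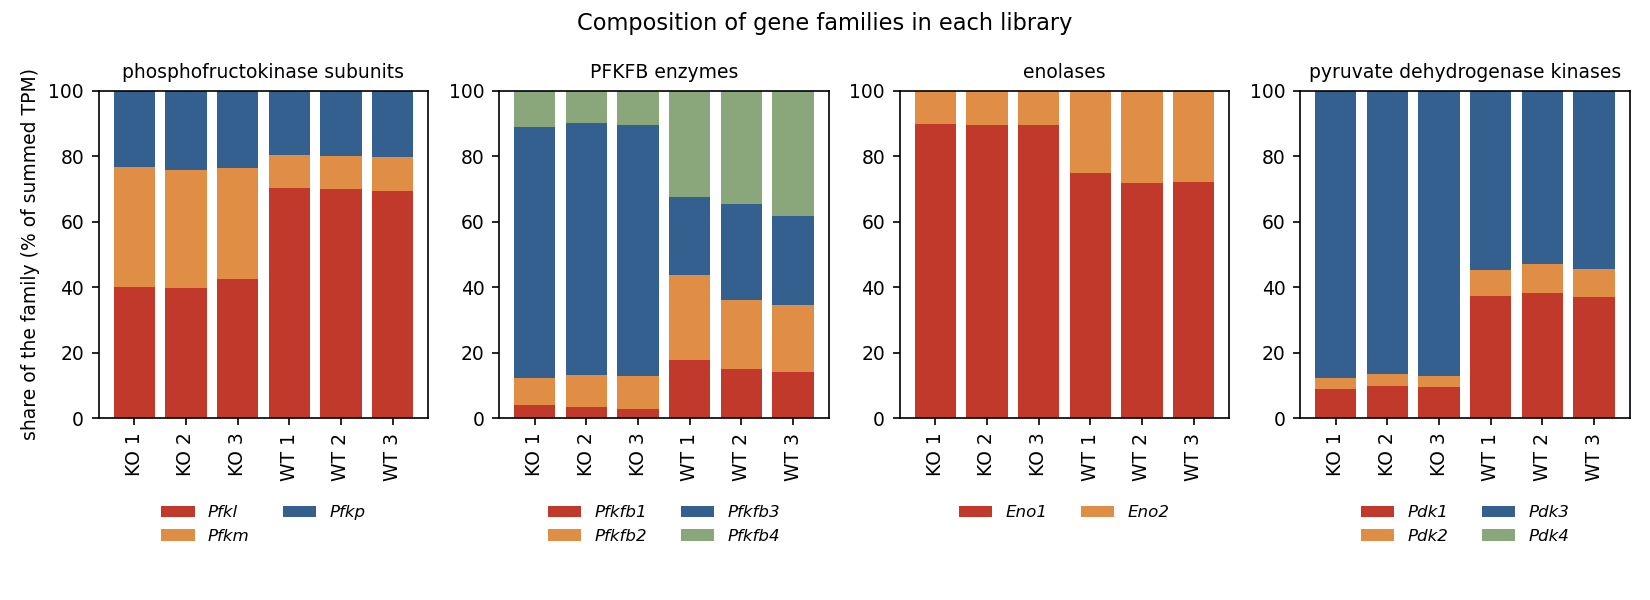
Stacked bars of the share of each paralog in the summed TPM of its family (percent), 1 bar per library, knockout libraries (KO) left of wild-type libraries (WT), for phosphofructokinase subunits, PFKFB enzymes, Eno1 and Eno2, and pyruvate dehydrogenase kinases. Pfkl averages 40.7% of its family in knockout and 69.8% in wild type, Pfkfb3 76.7% and 26.9%, and Pdk3 87.1% and 54.0%, while Pdk4 is too low to be seen. Eno2 averages 10.4% and 27.0% of the Eno1 and Eno2 pair, which leaves out Eno3, whose TPM was above that of either.

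Shares within a family do not depend on scaling between libraries, but they do depend on the gene lengths behind TPM. Of these shares 27 were compared, each by a two-sided exact permutation test over the 6 libraries whose smallest possible p is 0.1. The 22 shares in which the groups did not overlap reached that p, with a Benjamini-Hochberg value of 0.123, so none can pass 0.05 in this design. Each share given for phosphofructokinase, PFKFB, aldolase, enolase and kinase genes is among them. So are those of Pdha1, Pdhb, Mpc1 and Mpc2, which were chosen after their values were seen. In families of a pair of genes, 1 share mirrors the other, so the 22 are not separate results. Shares in families outside the pathway were not compared, and 82.3% of all tested genes were called. An excess of separated shares in this pathway therefore cannot be read from the 22.

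Aldolase and triose phosphate isomerase, which split the sugar and interconvert the resulting trioses, fell together. Aldoa had the highest TPM of the members in both groups, each member being counted by its own row. Aldoa had 1300, 1250 and 1340 CPM in knockout, against 2510, 2470 and 2510 CPM in wild type. It fell 1.93-fold (log2 fold change -0.95 ± 0.031, edgeR adjusted p = 3.43e-20), and 33 genes in knockout and 14 in wild type had a higher TPM. A second row of the table has the same symbol, with 48, 53 and 51 counts in knockout and 60, 54 and 47 counts in wild type, and was kept apart. Aldoc, the brain form, had 9, 8.74 and 9.25 CPM in knockout, against 52.4, 49.8 and 54.4 CPM in wild type. It fell 5.80-fold, the second largest change of the tested members (log2 fold change -2.54 ± 0.07, edgeR adjusted p = 7.25e-22), although it made only 0.617% of the aldolase TPM in knockout and 1.83% in wild type. Tpi1 had 315, 326 and 327 CPM in knockout, against 647, 674 and 672 CPM in wild type, 2.06-fold lower without overlap (edgeR adjusted p = 8.19e-21).

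Of the 7 members from glyceraldehyde phosphate to pyruvate, 6 fell and Bpgm was not called. Pkm, pyruvate kinase, which makes pyruvate and ATP, had 1280, 1300 and 1390 CPM in knockout, against 2260, 2380 and 2320 CPM in wild type, a 1.76-fold fall (log2 fold change -0.81 ± 0.034, edgeR adjusted p = 8.26e-18). Its M1 and M2 splice forms cannot be told apart in gene counts. Eno2, the neuronal enolase, on chromosome 6 from 124760053 to 124769673, had 21.8, 21.8 and 22.3 CPM in knockout, against 101, 105 and 112 CPM in wild type. It fell 4.83-fold (log2 fold change -2.27 ± 0.054, edgeR adjusted p = 2.23e-23), while Eno1, the form found in most tissues, fell 1.52-fold with 210 to 221 CPM in knockout and 309 to 346 CPM in wild type (edgeR adjusted p = 8.77e-14). Eno2 thus made 10.4% ± 0.236 of the Eno1 and Eno2 TPM in knockout and 27.0% ± 1.71 in wild type. That pair is not all enolase transcript. Eno3, outside the members, was higher in knockout, at 475 TPM against 315 TPM in wild type. Eno1b, named after its values were seen, was lower, at 72.3 TPM against 142 TPM. Bpgm, which makes and breaks 2,3-bisphosphoglycerate, had 12.7 to 15.2 CPM in knockout and 11.5 to 13.0 CPM in wild type, groups that overlapped (edgeR adjusted p = 0.0722); without knockout replicate 3 it was called higher (log2 fold change 0.23, edgeR adjusted p = 0.0223).

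Gapdh, Pgk1 and Pgam1 carry the middle steps, and their counts are less certain because copies of these genes are spread over the genome. Of their 50-base windows, 25.1%, 53.9% and 36.2% occur letter for letter in transcripts of other annotated genes, 213 of them pseudogenes in the case of Gapdh. Gapdh, which makes NADH, had 16.2, 14.9 and 17.7 CPM in knockout, against 37.8, 35.1 and 36.3 CPM in wild type, 2.24-fold lower (edgeR adjusted p = 1.73e-14). The Gapdh row held 238 to 282 counts per library in knockout and 627 to 678 in wild type. Genes that share such windows with it held 6134 to 6484 and 9830 to 10187. How many of these reads came from Gapdh was not tested. By its own row alone, Gapdh was at 14.5 TPM in knockout and 37.5 TPM in wild type, 23rd of the 35 members in both groups. That level and rank, and the 2.24-fold change, may not hold for Gapdh transcripts as a whole. Pgk1, the first ATP-making step, was 1.34-fold lower, with 37.2, 37.9 and 45.6 CPM in knockout and 57.5, 54.1 and 50.3 CPM in wild type (edgeR adjusted p = 1.11e-05). Pgam1, the mutase, was 2.44-fold lower, with 9.30 to 10.8 CPM in knockout and 23.3 to 26.4 CPM in wild type (edgeR adjusted p = 7.57e-14). The groups did not overlap for any of the 3. The share of windows was also above 20% for Eno1 (26.0%), Pkm (25.8%), Mpc1 (26.3%) and Ldhb (21.0%), while it was 9.26% for Ldha, 6.43% for Aldoa, 4.18% for Tpi1 and 0.0298% for Pfkl. Exons also overlap those of other annotated genes by 23.1% of the length of Mpc1, 17.4% of Pfkfb2, 16.1% of Pdha1, 15.3% of Pkm, 11.5% of Gpi1, 10.2% of Pfkm and 5.6% of Pfkp, and the counts of these members are less certain too. The gene that overlaps Pkm, Gm49759, had 9152 counts over the 6 libraries, and the one that overlaps Pfkp on the other strand, Pitrm1, had 21594.

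The main lactate dehydrogenase transcript fell and the main lactate carrier transcript rose. Ldha, the muscle-type subunit that favours lactate production, had 427, 428 and 428 CPM in knockout, against 1250, 1210 and 1300 CPM in wild type. The knockout libraries were nearly equal to each other and far below wild type, a 2.93-fold fall (log2 fold change -1.55 ± 0.032, edgeR adjusted p = 1.32e-24). Slc16a1, a proton-linked carrier of lactate and pyruvate, had 234, 244 and 237 CPM in knockout, against 165, 170 and 163 CPM in wild type, and rose 1.44-fold without overlap (log2 fold change 0.52 ± 0.035, edgeR adjusted p = 2.03e-13). The TPM of Ldha was 2.40 ± 0.0519 times that of Slc16a1 in knockout and 10.1 ± 0.584 times in wild type. Ldhb, the heart-type subunit, had 12 counts over the 3 knockout libraries and 12 over the 3 wild-type libraries (ratio 1.12, exact 95% counting interval 0.459 to 2.72). Slc16a3, a lactate exporter of glycolytic tissues, had 8 and 9 counts (ratio 0.994, interval 0.334 to 2.90). Ldha and Slc16a1 therefore held almost all counts of their families in both groups, and differences in Ldhb and Slc16a3 were not detectable at this depth.

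Among the kinases that switch off pyruvate dehydrogenase, Pdk1 and Pdk2 fell and Pdk3 rose. Pdk1, on chromosome 2 from 71873224 to 71903858, had 28.4, 30.7 and 30.1 CPM in knockout, against 134, 138 and 136 CPM in wild type, a 4.57-fold fall with no overlap (log2 fold change -2.19 ± 0.047, edgeR adjusted p = 2.03e-24). Pdk2, found in most tissues, had 4.50, 4.74 and 4.47 CPM in knockout, against 11.7, 13.2 and 12.9 CPM in wild type, 2.75-fold lower (edgeR adjusted p = 1.39e-12). Pdk3 was 1.42-fold higher, with 92.8, 90.1 and 91.4 CPM in knockout, against 65.1, 63.0 and 65.6 CPM in wild type (edgeR adjusted p = 2.59e-11). By TPM, Pdk3 was already the most abundant kinase of the 4 in wild type. The TPM of Pdk3 was 9.36 ± 0.518 times that of Pdk1 in knockout and 1.44 ± 0.0449 times in wild type. By CPM, which are not divided by gene length, Pdk1 was above Pdk3 in wild type, at 136 against 64.6 on average. The lengths used were 7779 bases for Pdk1 and 2561 for Pdk3. Pdk1 made 9.33% ± 0.448 of the kinase TPM in knockout and 37.4% ± 0.54 in wild type. Pdk4, the kinase induced by fasting, had 2 counts in knockout and 0 in wild type, both at or under a floor of 3 counts, so no fold is given. The 4 kinases summed to 151.2 ± 2.7 TPM in knockout and 198.8 ± 0.688 TPM in wild type.

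The mitochondrial pyruvate carrier, made of Mpc1 and Mpc2, was higher in knockout. Mpc2 had 37.9, 37.3 and 44.7 CPM in knockout, against 15.0, 13.4 and 12.5 CPM in wild type, 2.93-fold higher (log2 fold change 1.55 ± 0.08, edgeR adjusted p = 4.82e-15). Mpc1 had 4.69, 4.87 and 4.59 CPM in knockout, against 2.06, 2.30 and 2.02 CPM in wild type, 2.21-fold higher (edgeR adjusted p = 2.43e-07). All 3 knockout libraries lay above all wild-type libraries for both subunits.

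Within the dehydrogenase complex, the subunits moved unequally. Pdhb, the beta subunit of the component that decarboxylates pyruvate, on chromosome 14 from 8165996 to 8173025, had 154, 157 and 153 CPM in knockout, against 48.8, 48.7 and 52.9 CPM in wild type. It rose 3.08-fold (log2 fold change 1.62 ± 0.043, edgeR adjusted p = 2.84e-22). Pdha1, the alpha subunit that the kinases phosphorylate, had 189, 189 and 192 CPM in knockout, against 183, 194 and 186 CPM in wild type, groups that overlapped (log2 fold change 0.02 ± 0.035, edgeR adjusted p = 0.624); it was called lower with total-count, upper-quartile and TPM scaling. Dlat, the acetyl-transferring core, had 168, 168 and 176 CPM in knockout, against 122, 113 and 119 CPM in wild type, 1.45-fold higher (edgeR adjusted p = 9.39e-13). The TPM of Pdha1 was 1.27 ± 0.028 times that of Pdhb in knockout and 3.87 ± 0.248 times in wild type, a pair compared after its values were seen. The TPM of Ldha, at the lactate branch, was 3.23 ± 0.0432 times that of Pdhb in knockout and 29.1 ± 0.652 times in wild type (SD, n = 3 each), also compared after the values were seen.

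Genes next to the pathway were counted in 10 further lists from the same edgeR fit, read against the same 82.3% of all tested genes called; each gene named from them as higher or lower passed an edgeR adjusted p of 0.05. In the pentose phosphate pathway, 10 of 12 tested genes rose, 1 fell and 1 was not called (median log2 fold change 0.76), with G6pdx, its first enzyme, 2.62-fold higher and Rpe, the epimerase, 3.30-fold higher. In the hexosamine and fructose list, 10 of 12 rose and 2 fell (median 0.74), with Gfpt1, the entry enzyme of the hexosamine branch, 2.02-fold higher and Uap1l1 5.98-fold higher. In the tricarboxylic acid cycle, 14 of 19 rose, 4 fell and 1 was not called (median 0.42), with Idh1, cytosolic isocitrate dehydrogenase, 2.28-fold lower. Serine and glycine genes rose in 7 of 10 and fell in 3 (median 0.61), with Phgdh, the first enzyme of serine synthesis, 3.66-fold higher and Shmt2 2.05-fold higher. These 4 lists had medians above the 0.00 of all tested genes, against the -0.30 of the glycolysis members; exons of G6pdx and Rpe overlap those of other genes by 13.6% and 17.9% of their length, and their counts are less certain.

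Of the NADH shuttle genes, 7 of 11 rose, 2 fell and 2 were not called (median 0.50), with Got1 2.46-fold and Gpd2 1.94-fold higher. Gluconeogenic enzymes rose in 2 of 3 tested, Pck2 by 1.97-fold and G6pc3 by 1.77-fold, and 1 was not called (median 0.82). Glycogen genes were split, 7 up, 7 down and 1 not called of 15 (median 0.12), with Gys1, muscle-type glycogen synthase, 3.09-fold lower and Gaa, lysosomal glucosidase, 2.49-fold higher. Of other pyruvate routes and the rest of the dehydrogenase system, 5 of 11 rose, 4 fell and 2 were not called (median -0.06), with the malic enzymes Me1 and Me3 2.75-fold and 3.24-fold higher. Pdhx and Dld, dehydrogenase subunits outside the members, are named after their values were seen. Pdhx was 1.64-fold higher and Dld 1.06-fold lower (edgeR adjusted p = 0.0426 for Dld). Of 17 regulators, 7 rose, 8 fell and 2 were not called (median 0.04). Hif1a, the hypoxia-inducible factor subunit, was 1.30-fold higher with 535 to 575 CPM in knockout and 409 to 443 CPM in wild type. Of the 3 prolyl hydroxylases that mark it for destruction, Egln1 was 4.95-fold lower and Egln3 11.5-fold lower, with Egln3 at 21.0 to 23.1 CPM in knockout and 251 to 262 CPM in wild type. Egln2, named after its values were seen, was 1.43-fold higher, with 49.0 to 53.4 CPM in knockout and 34.8 to 37.3 CPM in wild type. Of 9 tested other paralogs, 4 rose and 5 fell (median -0.27). Slc2a6, a sugar transporter of lysosomes, was 12.9-fold higher with 9.63, 9.68 and 12.0 CPM in knockout, against 0.781, 0.785 and 0.843 CPM in wild type. Eno3, the muscle enolase, was 1.74-fold higher. At 475 TPM in knockout and 315 TPM in wild type it lay above Eno1 on that scale. By CPM, which are not divided by gene length, Eno3 was at 224 in knockout and 129 in wild type. Eno1 was at 216 CPM in knockout and 328 CPM in wild type, there above Eno3. Genes that share 50-base windows with Eno1 held 7343 to 7698 counts per library in knockout and 9883 to 10187 in wild type.

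**Figure D4:**
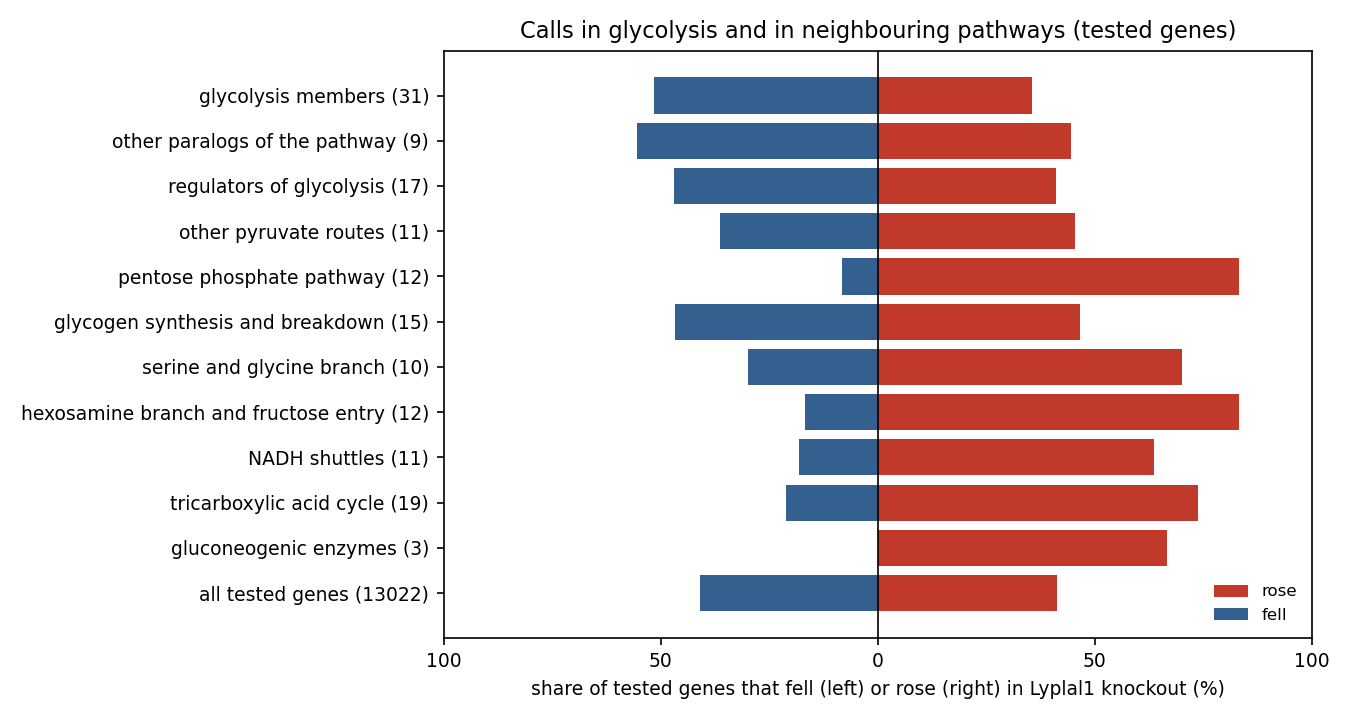
Share of tested genes (percent) that fell (left, blue) or rose (right, red) in Lyplal1 knockout over wild type, by edgeR at an adjusted p under 0.05, for the glycolysis members, the 10 neighbouring lists and all 13022 tested genes; numbers of tested genes are in parentheses. Among the glycolysis members 51.6% fell and 35.5% rose, against 40.9% and 41.3% of all tested genes, and genes that rose are the larger group in the pentose phosphate, hexosamine, serine and tricarboxylic acid lists.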

How the data were processed

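RNA from 6 libraries of 4T-1 cells was sequenced after Trizol extraction and DNBseq library preparation, per the labels' protocols. STAR 2.7.8a, featureCounts 2.0.1 and build GRCm38 are listed in the submitters' processing notes. Whether strand was used and how multi-mapping reads were counted is not stated there.

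Gene counts, in whole numbers, and TPM are as the authors deposited them. All 12 files of single libraries held the same values as the whole-series tables. Counts divided by TPM gave the same gene length in every library for 100.0% of 9182 genes, within 1%. For 98.6% of them that length was within 1% of all annotated M21 exon bases of the gene. It may differ from the length of the transcripts present. Symbols were matched for 55141 genes. Where 2 rows carried the symbol Aldoa, the row with more counts was the member.

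edgeR 4.0.16 (R 4.3.3) was run with filterByExpr, TMM factors and a robust quasi-likelihood F test, two-sided, no covariates, Benjamini-Hochberg over 13022 genes, threshold 0.05. Genes that rose or fell are those past it. SE of log2 fold changes come from the change and its F statistic. CPM use TMM-scaled library sizes and compare groups. TPM compare genes, within the limits of the lengths used. The fit was tested on simulated counts. Shares were compared with SciPy 1.17.1. Alternatives used DESeq2 1.42.0, limma 3.58.1 (voom, and trend on log2(TPM + 1) and log2(TPM + 0.1)), other factors, filters and left-out libraries.

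All 35 members are described; outside them, up to 2 called genes per neighbouring list with the smallest adjusted p are named, with Hif1a and Egln1. Some items are not reported here. The members and lists were chosen with earlier results of these data known. Promoter windows are RefSeq's, on GRCm38.p6. Gene positions are from GENCODE M21, on GRCm38. Replicate numbers were not used as pairs in the main fit. Deviations from group means correlated at 0.00234, 0.0822 and 0.057 between libraries of the same number, and at -0.0709 to 0.0052 between libraries of different numbers.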

Additional observations from a re-analysis of the deposited data

How the results depend on the processing

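Of the 31 tested members, 24 kept their direction and their side of the threshold under all 17 alternatives, and 7 (Slc2a1, Hk1, Hk2, Pfkfb1, Pfkfb4, Bpgm and Pdha1) did not under at least 1. With DESeq2, limma-voom, RLE factors or no filter, no tested member changed. The median log2 fold change of the members, -0.30, was -0.32 with a 1 CPM filter, -0.51 on both TPM scales, -0.44 with total counts or upper-quartile factors and -0.04 with no filter, which adds the 4 sparse members; leaving out 1 library gave -0.33 to -0.28. The summed level, -0.99 as a log2 ratio in TPM, was -0.73 in CPM. Hk2 reversed to -0.10 on both TPM scales and -0.02 with total counts and upper-quartile factors, Pdha1 to -0.19, -0.12 and -0.11, and Bpgm to -0.03 on both TPM scales. Pfkfb1 ran from -0.16 to 0.01 when 1 library was left out, with 0.00 without wild-type replicate 1 and 0.01 without knockout replicate 3. Lyplal1 was called lower at -0.41 with total counts or upper-quartile factors, -0.44 on log2(TPM + 1) and -0.48 on log2(TPM + 0.1). Against a 1.2-fold minimum, 9 glycogen genes were called, against 14 in the main comparison. The cause of these changes was not tested. With replicate number as a block, 17 members fell and 11 rose, Hk1 being the added call at -0.06; no other call changed. Without knockout replicate 3, 17 fell and 12 rose. Depth limits Slc2a3, Ldhb, Slc16a3 and Pdk4, which had 12 counts or fewer in each group.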
